A study of Mus musculus with 9 samples.

Results

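In testes that lacked the transcription factor RFX2, 101 of the 23074 genes of the count table were chosen as raised. For this choice each count was divided by the total of its library and multiplied by 1000000 (normalised count, CPM). A gene was kept when it had a mean of at least 20 counts over the 9 libraries, a mean CPM in Rfx2-/- testes of at least 2.5 times the wild type mean, and a higher CPM in every Rfx2-/- library than in any wild type library. These conditions were met by 109 genes, of which 8 were set aside by name. Because the genotype difference chose the members, that difference is described here and not tested.

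Both groups were decapsulated testes from mice aged postnatal day 29 to 30 (P30), on a mixed background of C57BL/6, 129/Sv and FVB/N, with 5 wild type and 4 Rfx2-/- animals and 1 library per animal. In the knockout, exon 7 of Rfx2 had been flanked by loxP sites and removed by a universally expressed Cre (ACTB-cre). According to the methods, the mixed-background line kept the neomycin selection cassette at the targeted gene. The targeted gene Rfx2 lies on the minus strand of chromosome 17 (GRCm38, 56775897 to 56831013). In Rfx2-/- replicates 1 to 4 it measured 208, 66.3, 163 and 174 CPM, all below the 5 wild type libraries, whose mean was 525 ± 24.1 CPM (SD). Which exons the remaining reads came from was not analysed here.

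RFX factors bind the X-box, an imperfect inverted repeat in the promoters of many genes of cilia and flagella. In the testis, meiotic spermatocytes give rise to haploid round spermatids, which then elongate, build a flagellum and pack their DNA. Many genes that are known for work in brain, gut, skin or immune cells are also transcribed at a low level in the testis. Counts were from whole tissue, so more cells of a type and more RNA per cell cannot be told apart.

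Rfx2-/- replicate 1 was the deepest library with 28800855 counts, and the others held between 13574764 and 15193330. Rfx2-/- replicate 2 stood apart from the other knockout libraries. Crisp1 and Adam7, secreted and membrane proteins of the epididymis, had 242 and 28.0 CPM in that library. In the other 8 libraries Crisp1 had at most 3.28 CPM and Adam7 at most 0.558 CPM. Lcn5, Lcn8 and Lcn9, lipocalins that also mark epididymal epithelium, were at or under 0.221 CPM in every library, replicate 2 included. Results that rest on this library are given with and without it. The median log2 ratio of Rfx2-/- to wild type over all tested genes was 0.16 on the CPM scale and 0.03 with TMM scaling, so a small part of each ratio given below is shared by all genes.

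The members were mostly weakly expressed genes that stayed weakly expressed. The median wild type level was 1.32 CPM, with 36 members below 1 CPM and 7 above 10 CPM, and the median Rfx2-/- level was 5.81 CPM. Per kilobase of exon, the wild type level had a median of 0.424 CPM against 4.59 CPM for all tested genes, and 94 members lay below the latter. In Rfx2-/- testes 86 members were still below the corresponding median of 5.03 CPM per kilobase. The ratio of the means ranged from 2.505 to 19.99 with a median of 3.16. It was at least 10 in 8 members, at least 5 in 24 and under 3 in 41. All 101 members had at least 1 count in every library, and 10 had 3 counts or fewer in at least 1 wild type library.

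**Figure D1:**
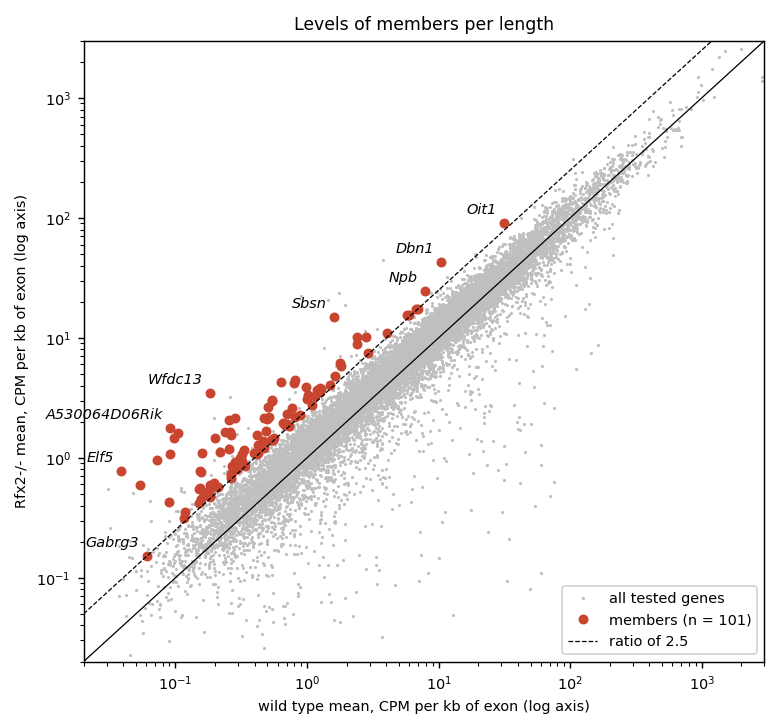
Mean level in Rfx2-/- testes (n = 4) against wild type testes (n = 5), in CPM per kilobase of exon on log axes, for the 101 members (red) and all tested genes (grey), with the solid line at equal levels and the dashed line at a ratio of 2.5. Most members lie at the low end of the wild type axis, and Oit1 has the highest level with 31.6 in wild type and 91.1 in Rfx2-/-.

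In the fit across all genes with edgeR, which uses TMM scaling, 100 of the 101 members had enough counts to be tested, and Wfdc13 did not. Of these, 78 were called higher (adjusted p at or under 0.01 and over 2-fold), where 0.826% of the 15613 genes tested were called higher. A large share is fixed by the choice of members on the same libraries. The number was 75 without Rfx2-/- replicate 2, where 1.04% of genes were called higher and 4.01% lower, and 96 with DESeq2, where 1.19% were called higher and 4.11% lower. Among the 14617 genes with a mean of at least 20 counts, 10.4% had every Rfx2-/- library above every wild type library, 6.93% had every one below, and 1.18% had a ratio of at least 2.5. Summed over all members, the wild type level was 371 ± 22.1 CPM (SD, n = 5), against 1307 ± 99.9 CPM (SD, n = 4) for Rfx2-/-. The 5 most abundant members made up 37.2% of the knockout sum.

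The members were spread over 20 chromosomes, with 10 on chromosome 9 and 3, or 2.97%, on the X chromosome, which held 3.88% of the tested genes. Chromosome 17, where the targeted gene Rfx2 lies, held 6 members. Their median exon length was 3747 bases against 4213 for all tested genes. The annotation gave 99 as protein coding, 1 as a long intergenic RNA and 1 as a T cell receptor constant gene.

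None of the 101 members had an RFX2 promoter peak in the study's chromatin immunoprecipitation, which used dissociated germ cells of wild type mice at postnatal day 21 (P21) and not whole testis, whereas 6.1% of the genes tested had one. A set of 5 members, A530064D06Rik, Ptprk, Dbn1, Afap1l1 and Oit1, were on the study's list of 67 genes higher in Rfx2-/- testes at P21. They made up 4.95% of the members and 7.46% of that list, which held 0.429% of the genes tested. No member was on the list of genes lower at P21, which held 0.66% of the genes tested. The P21 lists came from other mice, and only names were taken from them.

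Promoter windows from RefSeq (GRCm38.p6, from 250 bases before to 50 bases after each start) were found for 75 members, with 89 windows in all. The X-box, searched on both strands as GTNNCC, then 3 bases of any kind, then GNAAC (N is any base), was in 1 of these windows (1.12%) and in 2.17% of all 32851 windows. The window belonged to Ccl1. The cyclic AMP response element TGACGTCA was in 2 windows (2.25%), those of Flt1 and Pcsk1, and in 1.79% of all windows. All motifs were searched on both strands, and the arm can overlap an X-box. TATAAA was in 14.6% of the member windows and 13.62% of all, CCAAT in 31.5% and 37.4%, and the X-box arm GTTGCC in 12.4% and 12.5%. The median GC content was 54.3% in the member windows and 52.7% in all. These shares are descriptions of letters and were not tested.

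The sequences upstream of the start are shown for the member with an X-box match, for both members with the cyclic AMP response element, and for Dbn1 and Oit1, which had the highest levels of all members and held none of the 5 motifs. Capitals mark matches to the motifs named above, and each sequence runs 5′ to 3′ on the strand of its gene. They are chr11:82179813-82180062 for Ccl1 (minus strand), chr5:147726012-147726261 for Flt1 (minus strand), chr13:75089607-75089825 for Pcsk1 (plus strand), chr13:55488112-55488326 for Dbn1 (minus strand) and chr14:8378764-8379013 for Oit1 (minus strand).

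Ccl1: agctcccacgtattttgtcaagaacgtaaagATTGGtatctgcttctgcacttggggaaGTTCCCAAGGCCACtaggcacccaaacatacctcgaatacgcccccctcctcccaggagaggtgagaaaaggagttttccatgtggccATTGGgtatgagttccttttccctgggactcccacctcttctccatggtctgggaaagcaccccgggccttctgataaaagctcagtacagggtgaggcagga
Flt1: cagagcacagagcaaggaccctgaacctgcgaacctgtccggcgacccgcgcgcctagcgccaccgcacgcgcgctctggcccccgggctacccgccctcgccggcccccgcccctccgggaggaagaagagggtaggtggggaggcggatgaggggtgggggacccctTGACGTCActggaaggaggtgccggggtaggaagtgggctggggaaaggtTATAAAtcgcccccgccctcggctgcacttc
Pcsk1: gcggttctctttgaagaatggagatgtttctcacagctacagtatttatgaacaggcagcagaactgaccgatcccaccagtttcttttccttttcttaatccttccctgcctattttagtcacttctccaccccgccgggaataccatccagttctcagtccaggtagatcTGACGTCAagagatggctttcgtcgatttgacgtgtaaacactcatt
Dbn1: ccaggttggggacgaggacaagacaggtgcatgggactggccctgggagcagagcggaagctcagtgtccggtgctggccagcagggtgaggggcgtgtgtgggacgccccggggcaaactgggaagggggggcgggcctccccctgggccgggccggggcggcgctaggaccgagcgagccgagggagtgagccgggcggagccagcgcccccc
Oit1: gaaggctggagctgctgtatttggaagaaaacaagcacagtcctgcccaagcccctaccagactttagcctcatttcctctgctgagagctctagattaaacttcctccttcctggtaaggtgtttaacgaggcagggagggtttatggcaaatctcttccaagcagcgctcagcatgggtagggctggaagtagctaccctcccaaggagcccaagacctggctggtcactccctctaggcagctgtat

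In Ccl1 the X-box match GTTCCCAAGGCCAC reads as the motif on the opposite strand and stands between a pair of inverted CCAAT boxes. In Flt1 the response element is followed by TATAAA close to the start. The Dbn1 sequence was 74.9% GC and the Oit1 sequence 52.8% GC.

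Genes of regulated secretion formed the smallest group by role, with 5 members and ratios of 3.13 to 5.63. Rph3a encodes rabphilin, an effector of RAB3 on secretory vesicles. It had 4.35, 2.72, 1.95, 2.16 and 1.39 CPM in wild type replicates 1 to 5 and 22.5, 5.34, 12.0 and 16.8 CPM in Rfx2-/- replicates 1 to 4, with replicate 2 the lowest of the knockout libraries. Pcsk1, the prohormone convertase that cuts peptide hormone precursors, had 2.95, 2.21, 7.81, 6.35 and 3.48 CPM in wild type and 17.9, 37.6, 18.7 and 25.6 CPM in Rfx2-/-. The highest knockout value of Pcsk1 was in replicate 2, the reverse of Rph3a. The vesicle glycoprotein gene Sv2b had 3.24, 4.27, 5.37, 4.61 and 3.55 CPM in wild type and 27.7, 15.1, 22.2 and 24.2 CPM in Rfx2-/-, a ratio of 5.30. Cplx4, a complexin that controls vesicle fusion at sensory synapses, had 1.03, 2.14, 1.32, 1.54 and 1.74 CPM in wild type and 5.28, 12.8, 9.11 and 5.53 CPM in Rfx2-/-, again highest in replicate 2. All 5 members of the group were chosen without replicate 2 as well.

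Receptors and proteins best known from nerve and sensory cells made up 13 members, with a median ratio of 3.26. Rrh encodes peropsin, an opsin of the retinal pigment epithelium. It had 0.958, 0.589, 0.418, 0.628 and 0.278 CPM in wild type and 7.47, 10.8, 6.69 and 9.35 CPM in Rfx2-/-, a ratio of 14.9. The knockout libraries were close to each other relative to this gap. Rgs7, a regulator of G protein signalling in neurons, had 0.147, 0.221, 0.418, 0.907 and 0.487 CPM in wild type and 3.65, 7.28, 4.70 and 7.37 CPM in Rfx2-/-. Htr3a, a subunit of the serotonin-gated channel, had 0.442, 0.736, 0.0697, 0.349 and 0.487 CPM in wild type and 2.01, 2.96, 2.43 and 4.74 CPM in Rfx2-/-. Its lowest wild type value was 1 read, and the ratio of pooled counts was 6.91 with a 95% counting interval of 4.67 to 10.6. Grik1, a kainate receptor subunit, had 0.368, 0.515, 0.767, 0.768 and 0.556 CPM in wild type and 3.40, 1.01, 3.31 and 3.88 CPM in Rfx2-/-. Here replicate 2 lay just above the wild type range, and the ratio was 4.88 with it and 5.94 without it.

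Of the 10 members in growth factor and kinase signalling, 9 were chosen without replicate 2 as well. Epgn, an epidermal growth factor family ligand, had 0.737, 1.33, 1.46, 0.768 and 1.39 CPM in wild type and 7.08, 8.22, 6.98 and 8.42 CPM in Rfx2-/-. Its knockout libraries differed by little, with 7.68 ± 0.750 CPM (SD, n = 4). Ros1, a receptor tyrosine kinase known from epididymal epithelium, had 3.76, 4.79, 5.02, 4.75 and 2.78 CPM in wild type and 25.9, 17.6, 25.1 and 24.6 CPM in Rfx2-/-. The lowest knockout value of Ros1 was in replicate 2, the library with the high Crisp1. Ros1 has 7776 bases of exons, and long genes tended to be low in that library, as described below. Any part of epididymal RNA in the level of Ros1 was not tested. Ptprk, a receptor tyrosine phosphatase that was also higher at P21, had 5.38, 6.11, 9.90, 7.05 and 5.70 CPM in wild type and 35.6, 25.3, 27.7 and 28.9 CPM in Rfx2-/-. Grb7, an adaptor that binds activated receptor kinases, had 1.47, 1.69, 5.09, 2.79 and 5.35 CPM in wild type and 10.4, 9.30, 12.1 and 21.1 CPM in Rfx2-/-. Among these 4 genes Grb7 varied most among wild type testes.

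The 8 transcription regulators included the member with the highest ratio. Elf5 (ENSMUSG00000027186, chromosome 2, 103411688 to 103450989, plus strand), an ETS factor of mammary and trophoblast lineages, had 0.295, 0.147, 0.418, 0.140 and 0.139 CPM in wild type and 1.35, 7.35, 4.04 and 5.46 CPM in Rfx2-/-. The ratio of the means was 19.99, but the wild type mean rested on 16 reads in all, and the ratio of pooled counts was 17.1 with a 95% counting interval of 10.4 to 30.4. Its knockout libraries spread more than 5-fold. Without replicate 2, its highest knockout library, the ratio was 15.9, below the 19.7 of A530064D06Rik. The zinc finger gene Zfp937 had 1.03, 0.368, 0.837, 0.768 and 0.348 CPM in wild type and 3.92, 4.69, 4.56 and 5.13 CPM in Rfx2-/-. Bend7, which encodes a BEN domain protein, had 1.10, 1.33, 0.906, 1.26 and 0.904 CPM in wild type and 8.12, 7.50, 5.81 and 4.80 CPM in Rfx2-/-. Hoxa9, a homeobox gene of axial patterning, had 0.884, 1.25, 0.558, 0.698 and 0.834 CPM in wild type and 3.54, 3.17, 2.72 and 2.90 CPM in Rfx2-/-, with the least spread among knockout libraries of these 4 in CPM. Of all 50-base sequences of Zfp937 exons, 29.4% also occurred in exons of other genes, most often Zfp442. Reads from such stretches have more than one position and were discarded, so the level of Zfp937 is uncertain.

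Actin-binding, microvillar and adhesion proteins were 10 members, 8 of them chosen without replicate 2 too. Dbn1 (ENSMUSG00000034675, chromosome 13, 55473429 to 55488111, minus strand) encodes drebrin, an actin side-binding protein. It was the most abundant member in Rfx2-/- testes, with 61.8, 47.0, 36.3, 47.2 and 45.2 CPM in wild type and 232, 173, 134 and 236 CPM in Rfx2-/-. The group means were 47.5 ± 9.18 CPM (SD, n = 5) and 194 ± 48.9 CPM (SD, n = 4), a ratio of 4.08. Tns4, a tensin of focal adhesions, had 0.663, 0.368, 0.558, 0.489 and 0.278 CPM in wild type and 5.94, 1.66, 8.38 and 6.25 CPM in Rfx2-/-. Vil1 encodes villin, which bundles actin in the microvilli of gut and kidney, and had 0.589, 1.25, 1.19, 1.26 and 0.765 CPM in wild type and 8.99, 4.61, 5.51 and 11.6 CPM in Rfx2-/-. In both genes replicate 2 was the lowest knockout library. Afap1l1, an actin filament associated protein, went the other way, with 10.4, 11.1, 8.16, 10.4 and 12.0 CPM in wild type and 23.0, 54.7, 25.9 and 46.7 CPM in Rfx2-/-.

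**Figure D2:**
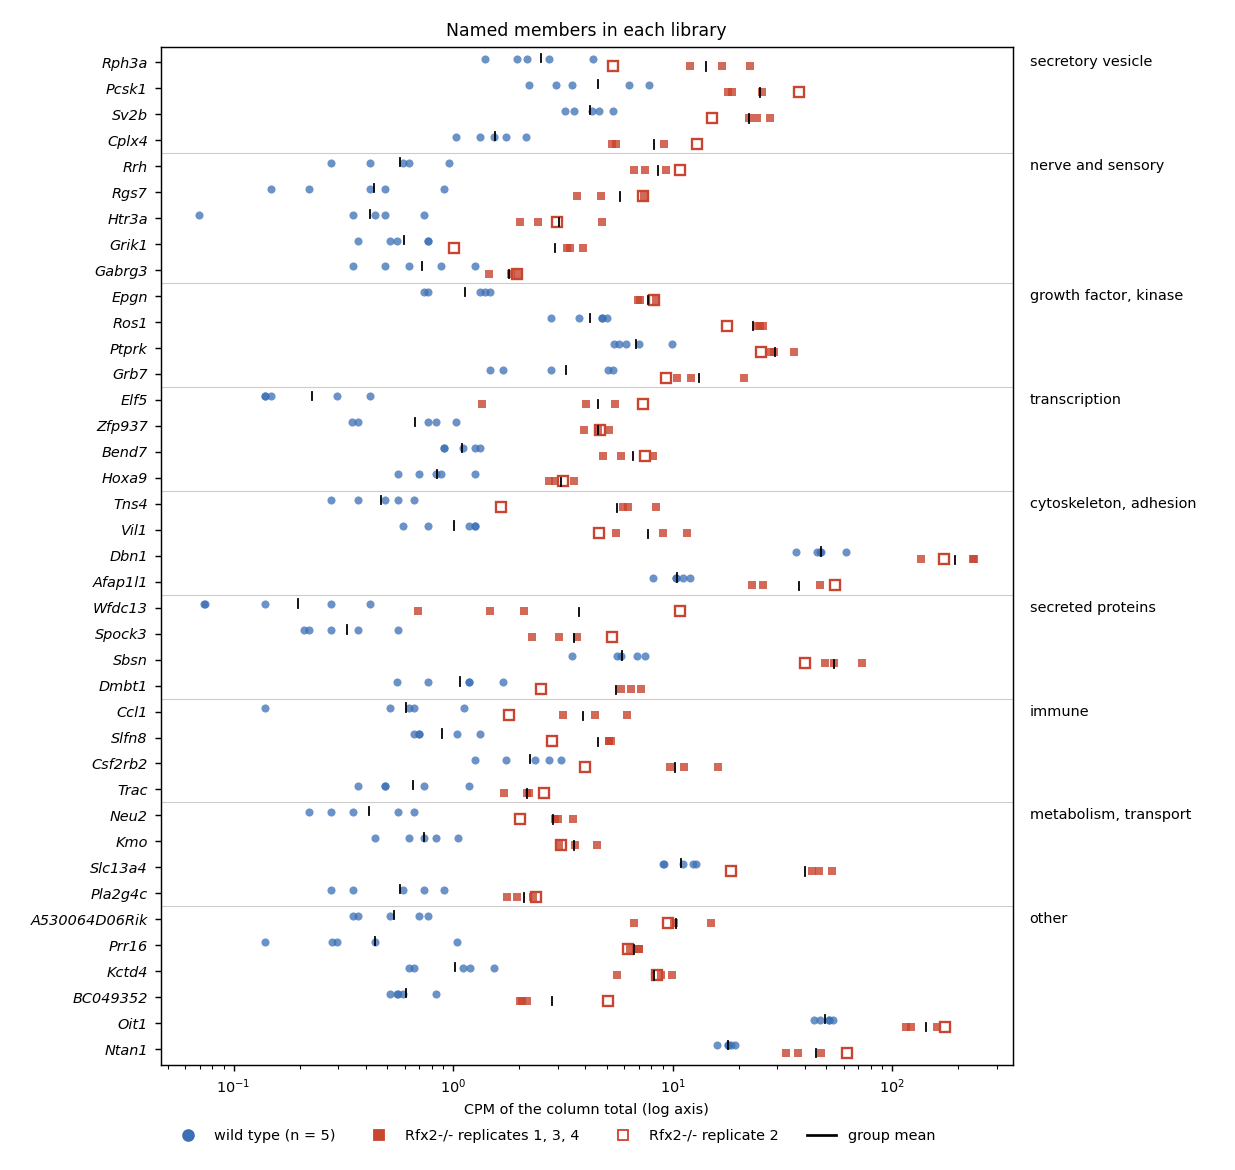
CPM (log axis) of 39 members in each library, grouped by role, with wild type as circles, Rfx2-/- as squares, replicate 2 of Rfx2-/- as an open square and group means as bars. Every knockout library lies to the right of every wild type library, as the choice requires, and the open square is at the left edge of its group in Rph3a, Tns4 and Csf2rb2 and at the right edge in Wfdc13, Pcsk1 and BC049352.

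Secreted proteins, proteases and inhibitors were 10 members with ratios of 2.56 to 19.1. Sbsn (ENSMUSG00000046056, chromosome 7, 30751471 to 30756134, plus strand) encodes suprabasin, a secreted protein of the upper epidermis. It had 5.82, 7.51, 6.90, 5.58 and 3.48 CPM in wild type and 72.6, 40.2, 54.1 and 49.5 CPM in Rfx2-/-, a ratio of 9.24. No other member with more than 50 CPM in Rfx2-/- testes, namely Dbn1 and Oit1, had so large a ratio. Wfdc13 (ENSMUSG00000067704, chromosome 2, 164685107 to 164687706, plus strand) belongs to a family of small secreted proteins with a protease inhibitor fold. It had 0.0737, 0.0736, 0.418, 0.140 and 0.278 CPM in wild type and 0.694, 10.7, 1.47 and 2.11 CPM in Rfx2-/-. Most of its knockout reads came from replicate 2, the library with the high Crisp1 and Adam7, and the ratio was 19.1 with that library and 7.24 without it. Without it Wfdc13 did not reach a mean of 20 counts. The part of epididymal RNA in this difference was not tested.

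The remaining named secreted proteins did not depend on replicate 2 for their place. Spock3, a testican proteoglycan, had 0.368, 0.221, 0.558, 0.209 and 0.278 CPM in wild type and 2.29, 5.26, 3.67 and 3.03 CPM in Rfx2-/-, a ratio of 10.9. Dmbt1, a scavenger receptor-like protein of mucosal surfaces, had 1.18, 1.69, 1.19, 0.768 and 0.556 CPM in wild type and 5.80, 2.52, 7.20 and 6.45 CPM in Rfx2-/-. Replicate 2 was the highest knockout library for Spock3 and the lowest for Dmbt1.

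Immune genes were 10 members, and 4 of them were chosen without replicate 2, the smallest share of any group. Trac and Klhl6 were not chosen then because their mean counts fell below 20, although their ratios were still 3.10 and 2.59. Ccl1, a chemokine of activated T cells and mast cells, had 0.663, 0.515, 1.12, 0.628 and 0.139 CPM in wild type and 6.22, 1.803, 3.16 and 4.41 CPM in Rfx2-/-. The annotation gives Ccl1 a span from 82176657 to 82305690 on chromosome 11, which reaches far beyond the RefSeq start. Where in this span its reads fell was not analysed here. Slfn8, a Schlafen gene, had 1.33, 0.663, 1.05, 0.698 and 0.695 CPM in wild type and 5.21, 2.81, 5.14 and 5.13 CPM in Rfx2-/-. Csf2rb2, a receptor chain for interleukin 3, had 3.09, 2.36, 1.74, 2.72 and 1.25 CPM in wild type and 16.1, 3.97, 9.70 and 11.3 CPM in Rfx2-/-. Replicate 2 was the lowest knockout library in all 3 of these genes. Part of the exon sequence of Slfn8 (14.6%) and Csf2rb2 (18.9%) is shared with other genes, most of it with Slfn10-ps and Csf2rb, so both levels are uncertain.

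Trac, the constant gene of the T cell receptor alpha chain, had 0.368, 0.736, 1.19, 0.489 and 0.487 CPM in wild type and 1.70, 2.60, 2.20 and 2.17 CPM in Rfx2-/-. The list of 10 T and B cell markers did not share this pattern. Its summed level was 9.87 to 16.1 CPM in wild type and 5.41 to 13.03 CPM in Rfx2-/-, Cd8a was at 0 in every library, and of the 4 markers tested Lck was called lower (edgeR adjusted p 0.00457, log2 fold change -1.41). For 12 macrophage markers the sum was 362 to 424 CPM in wild type and 329, 660, 402 and 342 CPM in Rfx2-/- replicates 1 to 4, and none was called in either direction, with 4 at an unadjusted p under 0.05 and higher in edgeR and 0 called by DESeq2. In edgeR 10 of the 12 macrophage markers had fold changes above 0, with a median log2 fold change of 0.50. The high macrophage sum belonged to replicate 2, and its part in the immune members was not tested.

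Metabolic enzymes and transporters were 14 members with ratios up to 6.91. Neu2, the cytosolic sialidase, had 0.663, 0.221, 0.349, 0.558 and 0.278 CPM in wild type and 3.51, 2.02, 3.01 and 2.90 CPM in Rfx2-/-. Kmo, which hydroxylates kynurenine in tryptophan breakdown, had 0.442, 0.736, 0.837, 1.05 and 0.626 CPM in wild type and 3.02, 3.10, 3.60 and 4.54 CPM in Rfx2-/-. Both were low in all libraries. Slc13a4, a sodium-coupled sulphate transporter, was more abundant, with 11.1, 12.8, 12.3, 9.07 and 9.11 CPM in wild type and 42.9, 18.4, 53.1 and 46.2 CPM in Rfx2-/-. Pla2g4c, a cytosolic phospholipase A, had 0.589, 0.736, 0.906, 0.349 and 0.278 CPM in wild type and 1.94, 2.38, 1.76 and 2.30 CPM in Rfx2-/-. It was not chosen without replicate 2, although its ratio was then still 3.50, because its mean count fell below 20.

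The last 21 members had other roles or none that is well known. A530064D06Rik (ENSMUSG00000043939, chromosome 17, 48149126 to 48167275, minus strand) had 0.516, 0.368, 0.349, 0.768 and 0.695 CPM in wild type and 15.0, 9.52, 6.69 and 10.1 CPM in Rfx2-/-, a ratio of 19.2. It was the second of all members by ratio and also higher at P21. The targeted gene Rfx2 lies on the same chromosome, from 56775897 to 56831013. Per the methods, the allele was made in embryonic stem cells of a single strain, and this line was kept on a mixed background. The part of strain differences in DNA linked to Rfx2 in the level of A530064D06Rik was not tested, at P21 or here. Prr16, a proline-rich protein gene, had 0.295, 0.442, 1.05, 0.279 and 0.139 CPM in wild type and 6.35, 6.27, 7.06 and 7.04 CPM in Rfx2-/-, so its knockout libraries hardly differed. Kctd4, a BTB domain protein gene, had 1.10, 0.663, 1.53, 1.19 and 0.626 CPM in wild type and 8.85, 8.44, 5.59 and 9.87 CPM in Rfx2-/-. BC049352 had 0.589, 0.515, 0.837, 0.558 and 0.556 CPM in wild type and 2.01, 5.05, 2.06 and 2.17 CPM in Rfx2-/-, and its ratio was 4.62 with replicate 2 and 3.41 without it.

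Oit1 (ENSMUSG00000021749, chromosome 14, 8348937 to 8378754, minus strand), a secreted FAM3 family protein gene, was the most abundant member in wild type testes. It had 53.8, 51.2, 44.0, 46.8 and 51.6 CPM in wild type and 122, 174, 115 and 160.1 CPM in Rfx2-/-, or 49.5 ± 4.00 CPM (SD, n = 5) and 143 ± 28.7 CPM (SD, n = 4). The ratio was 2.89, below the members' median of 3.16.

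Genes on either side of the limit of 2.5 were alike. The lowest ratios among members were 2.505 for Gabrg3 and 2.51 for Ntan1. Gabrg3, a subunit of the GABA receptor, had 0.884, 1.25, 0.488, 0.349 and 0.626 CPM in wild type and 1.98, 1.95, 1.84 and 1.45 CPM in Rfx2-/-. Ntan1, an amidase of the N-end rule pathway, had 18.5, 17.9, 19.2, 16.0 and 17.8 CPM in wild type and 32.7, 62.4, 37.3 and 47.3 CPM in Rfx2-/-. Neither was chosen without replicate 2 or with TMM scaling. Just below the limit, the ribosomal protein gene Rps2 had a ratio of 2.49, with 6.56, 5.38, 5.65, 12.98 and 5.56 CPM in wild type and 13.2, 27.7, 16.4 and 14.7 CPM in Rfx2-/-. Zfp874a, a zinc finger gene, had a ratio of 2.48, with 1.18, 1.77, 2.16, 1.61 and 1.95 CPM in wild type and 3.72, 6.06, 3.60 and 3.82 CPM in Rfx2-/-.

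Within the knockout group, replicate 4 was the highest of the 4 libraries in 28 of the 101 members, where it was the highest in 10.1% of all tested genes. Replicate 3 was the highest in 9 members and in 22.2% of tested genes. Replicate 2 was the highest in 38 members and replicate 1 in 26, close to their 41.6% and 26.1% of tested genes. Replicate 2 was also the lowest knockout library in 34 members. Members with under 2 kb of exons had a median log2 deviation of 0.67 in replicate 2 from the mean of the other 3 knockout libraries, with 18 of 20 above 0. Those with 4 kb or more had a median of -0.24, with 18 of 46 above 0. Across the 101 members Spearman's rho between exon length and this deviation was -0.49, and across 15455 tested genes it was also -0.49. These points share the same libraries and are not independent. In replicate 2 the members therefore varied with length as all genes did.

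**Figure D3:**
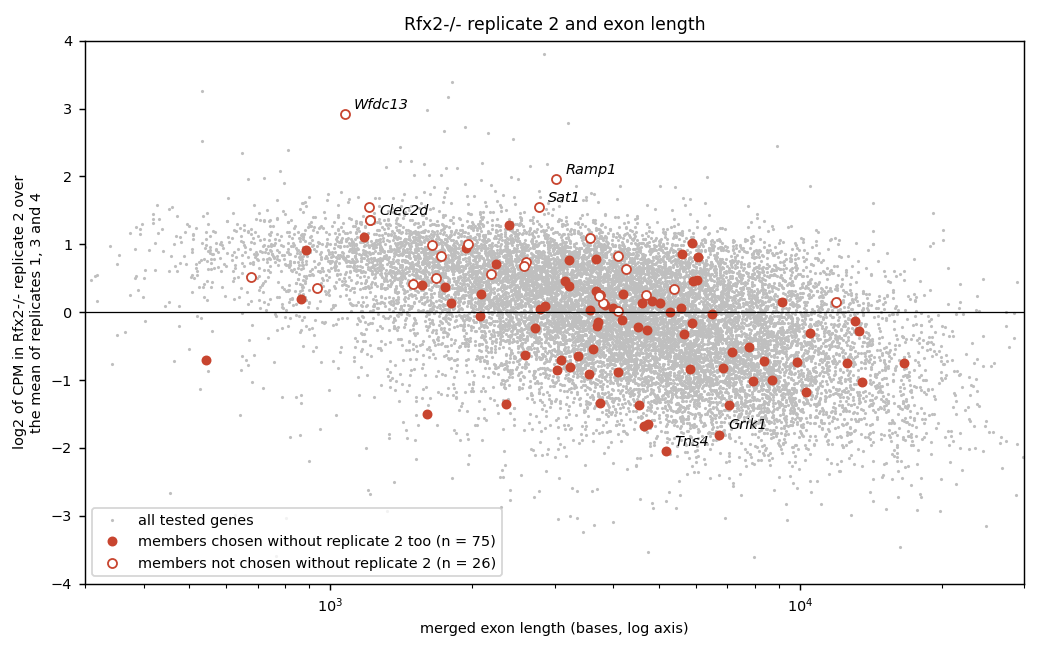
Log2 of the CPM in Rfx2-/- replicate 2 over the mean of replicates 1, 3 and 4, against exon length (bases, log axis), for the members (filled circles for the 75 also chosen without replicate 2, open circles for the 26 that were not) and all tested genes (grey). Short genes tend to lie above 0 and long genes below it, with many exceptions, and Wfdc13 and Ramp1 lie highest among the members.

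Without replicate 2, 75 of the 101 members were chosen again, 26 were not, and 32 other genes entered. The 26 had a median exon length of 2597 bases against 4194 for the 75, and replicate 2 was the highest knockout library in 22 of them. Their ratio without that library ranged from 1.83 to 7.24. The omission of that library defined these 26, so its high values in them are largely fixed by this choice. Short genes also tended to be high in it. Ramp1, a partner of calcitonin family receptors singled out after its values were seen, had 1.88 to 2.58 CPM in wild type and 2.63 to 17.7 CPM in Rfx2-/-, the highest in replicate 2. Its ratio was 3.38 with replicate 2 and 1.96 without it. With TMM scaling 75 members were also kept, 66 of them in common with the 75 kept without replicate 2. Whichever single library was left out, 64 members stayed.

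The wild type libraries differed as well. Wild type replicate 3 was the highest of the 5 in 36 members and replicate 5 the lowest in 38. Over all tested genes these libraries were the highest in 46.1% and the lowest in 37.9%. The median log2 deviation of the members from the wild type mean was 0.23 in replicate 3 and -0.22 in replicate 5, against 0.12 and -0.09 for all tested genes. The summed level of 14 elongating spermatid markers was lowest in wild type replicate 3, at 13089 CPM, and highest in replicate 5, at 21790 CPM, while the knockout libraries had 11289, 16363, 12739 and 11328 CPM. Of these markers 0 were called in edgeR, with 9 lower and 0 higher at an unadjusted p under 0.05, 3 called lower by DESeq2 and 4 called lower in edgeR without Rfx2-/- replicate 2. According to the paper, Rfx2-/- spermatids stop before they elongate, so the summed level of these markers does not count elongating cells. The part of spermatid content in the members' differences was not tested.

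**Figure D4:**
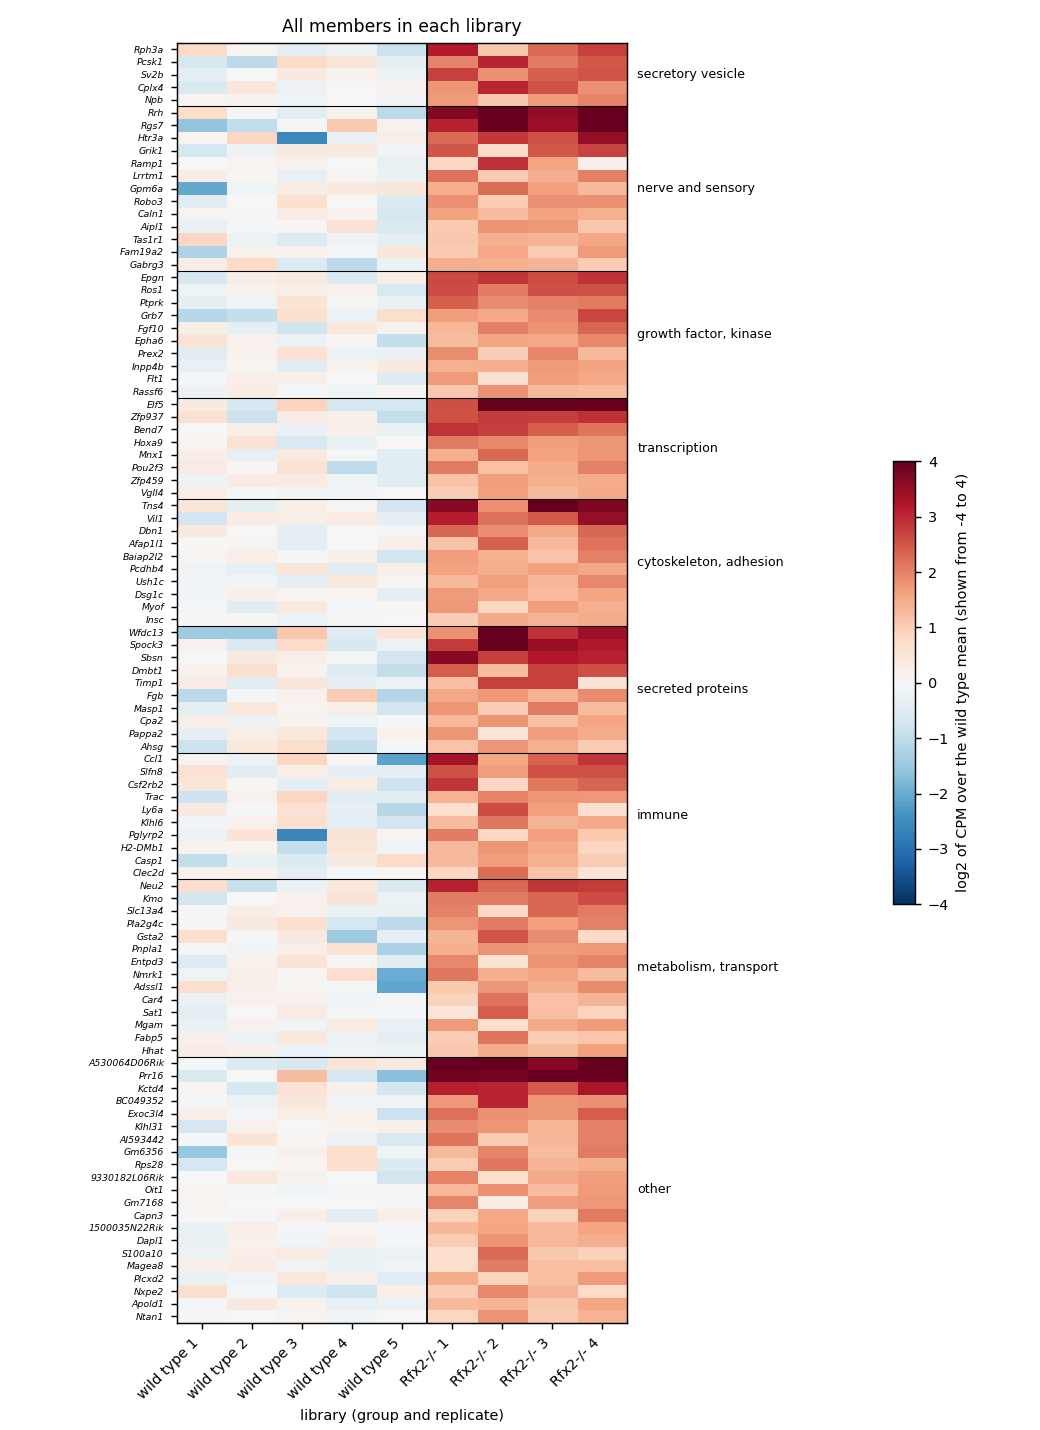
Log2 of the CPM of each of the 101 members over its wild type mean, in the 5 wild type and 4 Rfx2-/- libraries, ordered by role and then by ratio, with colours shown from -4 to 4. The knockout columns are red throughout by the choice of members, and the Rfx2-/- 2 column is paler than its neighbours for some members and darker for others.

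Lists of genes that share a known function with members were counted in the same edgeR fit, in which 0.826% of genes were called higher and 3.68% lower, with a median log2 fold change of 0.03. Higher calls of members are largely fixed by their choice, and the lists were written with earlier results of these data known. Only the genes of a list that were not members can be set beside these shares. Among 28 tested genes of regulated secretion and synaptic vesicles, 4 were called higher, the members Rph3a, Sv2b and Cplx4 and the receptor phosphatase-like granule protein gene Ptprn2, and 1 lower. The latter, Chgb, encodes secretogranin 1 of dense-core granules and had 7.75 to 11.2 CPM in wild type and 0.197 to 0.588 CPM in Rfx2-/- (edgeR adjusted p 2.95e-07). The other 25 genes of the list that were not members had a median of 0.06. So vesicle genes were found on both sides, and most were not called.

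Of 11 tested genes of neuropeptide precursors and processing, 3 were called higher and 0 lower. They were the members Pcsk1 and Npb, the latter a neuropeptide precursor, and Penk, the enkephalin precursor. Penk had 108 to 142 CPM in wild type and 246 to 322 CPM in Rfx2-/- (edgeR adjusted p 0.00109, log2 fold change 1.04), so it was far more abundant than either member. The median of the list was 0.58, and 0.40 without its members. Without Rfx2-/- replicate 2 the count was 2.

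All 4 genes called higher among 20 tested genes of the brush border and microvillus were members, namely Vil1, Ush1c, which encodes harmonin, Baiap2l2, a membrane-bending protein, and Mgam, an intestinal glucosidase. The other 16 genes had a median of -0.14, and 0 of them were called in edgeR. In the list of desmosome and keratin genes, which also held the secreted epidermal protein gene Sbsn, 3 of 14 were called higher. They were the member Sbsn, the desmosomal cadherin Dsg1b and the plaque protein Pkp1. The list did not hold the member Dsg1c, another desmosomal cadherin that was called higher. Its count therefore leaves out a gene of this function. Dsg1b had 3.14 to 4.68 CPM in wild type and 8.10 to 9.72 CPM in Rfx2-/- (edgeR adjusted p 0.0017).

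In phototransduction and the visual cycle, 2 of 18 tested genes were called higher and 2 lower. The higher genes were the members Rrh and Aipl1, a chaperone of photoreceptor phosphodiesterase. The lower genes were Sag, the arrestin of rods, with 10.1 to 14.5 CPM in wild type and 0.294 to 2.31 CPM in Rfx2-/- (edgeR adjusted p 9.44e-05), and Cnga3, a channel subunit of cones, with 3.90 to 8.24 and 0.724 to 1.01 CPM (edgeR adjusted p 1.55e-05). Genes of one sensory pathway therefore lay on both sides. Among 8 tested cyclic nucleotide channel genes, Cnga3 alone was called, and 0 were called higher.

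Of 50 tested receptor tyrosine kinases, 0 were called lower, and 0 of the 47 that were not members were called higher. The 3 called higher were all members. Besides Ros1 these were Epha6, an ephrin receptor, and Flt1, a receptor for vascular endothelial growth factor. Flt1 had 6.74 to 11.4 CPM in wild type and 30.9, 14.5, 30.2 and 28.0 CPM in Rfx2-/- replicates 1 to 4. Flt1 is also a marker of endothelium, and of the 8 endothelial markers tested it was the only one called higher, while Vwf was called lower (edgeR adjusted p 0.0063). The sum of the endothelial list was 73.2 to 83.1 CPM in wild type and 43.7 to 92.8 CPM in Rfx2-/-.

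Of 18 tested inflammasome and interferon genes, 1 was called higher, the member Slfn8, and 2 lower, Nlrc4 and Mx1. Nlrc4, an inflammasome sensor, had 4.74 to 7.51 CPM in wild type and 1.23 to 1.54 CPM in Rfx2-/- (edgeR adjusted p 3.09e-05). The member Casp1, the protease that inflammasomes activate, was tested and not called. Among 18 tested homeobox and epithelial regulators, 6 were called higher, the members Elf5, Mnx1, Hoxa9, Pou2f3 and Vgll4 and the non-member Prrx1, and 1 lower. The lower gene was Elf3, an epithelial ETS factor related to Elf5, with 2.16 to 3.91 CPM in wild type and 0.132 to 0.937 CPM in Rfx2-/- (edgeR adjusted p 0.000781). Of the 13 genes of this list that were not members, 1 was called higher and 1 lower, and their median was -0.26.

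**Figure D5:**
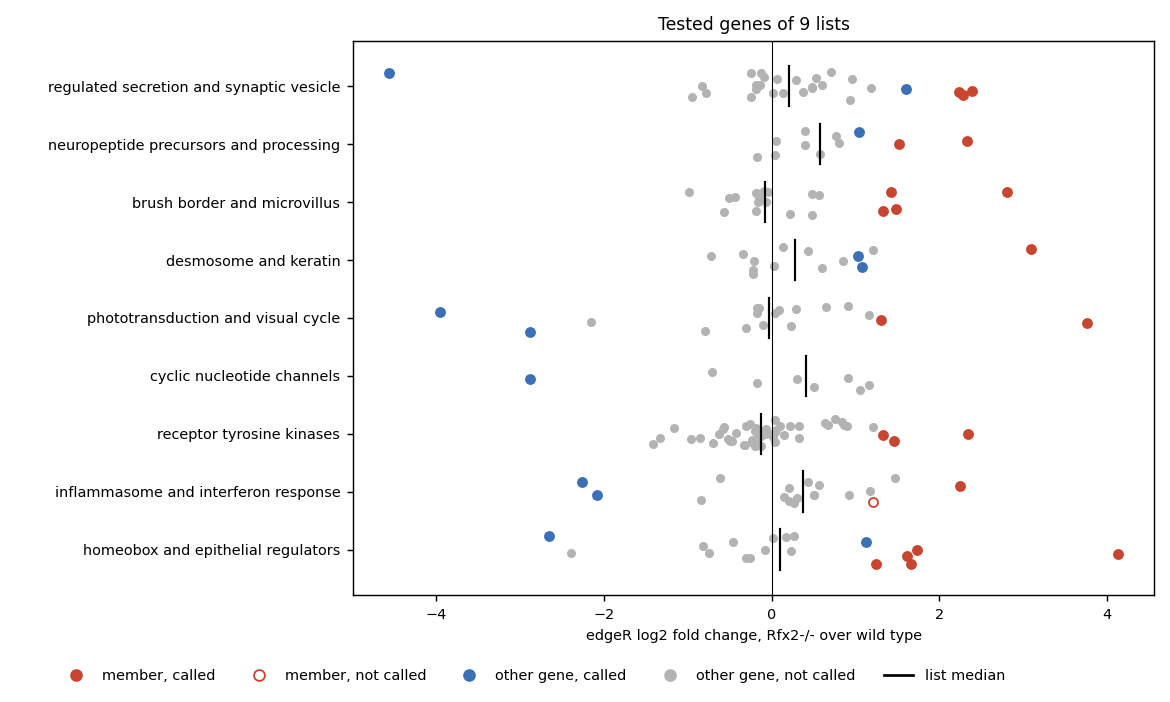
EdgeR log2 fold change of Rfx2-/- over wild type for the tested genes of 9 lists, with called members in red, members not called as open circles, other called genes in blue, other genes in grey and the list median as a bar. The red points lie to the right by their choice, and the medians of the genes that were not members range from -0.26 (homeobox and epithelial regulators) to 0.41 (cyclic nucleotide channels).

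The other marker lists held few calls. None of the tested markers of spermatogonia (12), meiotic prophase (12), late spermatocytes (12), round spermatids (12), Sertoli cells (14), Leydig cells (9), peritubular myoid cells (7) or epididymal epithelium (4) was called in edgeR or DESeq2, and none of these lists held a member. At an unadjusted p under 0.05, between 0 and 6 markers per list were higher and 0 or 1 lower in edgeR. The summed level of the meiotic prophase markers was 1451 to 1802 CPM in wild type and 2173, 4334, 2187 and 2447 CPM in Rfx2-/- replicates 1 to 4, and all 12 had fold changes above 0. Its part in the members' differences was not tested. The epididymal sum was 354 to 436 CPM in wild type and 384, 1139, 474 and 492.6 CPM in Rfx2-/-. In every library most of this sum came from listed genes other than Crisp1, Adam7 and the lipocalins. It is therefore not a measure of epididymal tissue alone.

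Genes that neighbour members were mostly not called. The nearest genes of the table on each side and those overlapping a member came to 217 genes that were not members. Of the 154 tested, 4 (2.60%) were called higher and 3 (1.95%) lower, beside the 0.826% and 3.68% of all genes, with a median log2 fold change of 0.08. The higher neighbours were Fh1, Zfp429, Zfp874a and Slfn10-ps, named after their values were seen. Zfp429 and Zfp874a flank the member Zfp459 on chromosome 13 at distances of 5890 and 3131 bases, all 3 on the same strand. Zfp429 had 0.295 to 0.589 CPM in wild type and 1.05 to 1.87 CPM in Rfx2-/- (edgeR adjusted p 0.00522). Zfp459 shares 15.9% of its 50-base sequences with other genes, most often Gm48900, so that reads of Zfp459 may be lost. Sharing was computed for members only, and so not for Zfp429 and Zfp874a.

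Slfn10-ps lies 7320 bases from Slfn8 on chromosome 11 and had 0 to 0.295 CPM in wild type and 1.74, 1.44, 1.69 and 2.57 CPM in Rfx2-/- (edgeR adjusted p 0.000373). This pair shares part of its sequence, as given above. On chromosome 1 the members Rgs7 and Kmo are neighbours, 127881 bases apart on opposite strands, with Fh1, the fumarate hydratase gene, between them and overlapping Kmo. Fh1 had 33.0, 36.1, 38.1, 36.6 and 31.1 CPM in wild type and 62.2, 122, 76.7 and 83.5 CPM in Rfx2-/- (edgeR adjusted p 0.000792), so this stretch held 3 genes called higher in a row. The lower neighbours were Ablim3 beside Afap1l1, Inpp5d beside Neu2 and Rasal3 beside Pglyrp2.

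Overlap with another gene of the table affected 17 members, 15 of them on opposite strands, and for 6 members exons overlapped. Reads that fell on exons of different genes were left out by the authors, and the use of strand in counting is not stated, so reads of such pairs may not be told apart. Exons of Vil1 overlap those of Usp37 by 49 bases and exons of Neu2 those of Ngef by 123 bases, and neither partner was called. For Ntan1 the overlap with Pdxdc1 was 713 bases. Over all members, 81 shared under 5% of their 50-base exon sequences with other genes and 16 shared over 10%, up to 49.8% for Gsta2, a glutathione transferase with close relatives.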

How the data were processed

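Testis RNA-seq libraries of 5 wild type and 4 Rfx2-/- mice were compared. The authors deposited raw read counts per gene. Per the labels' processing notes the tools were CASAVA 1.8.2, STAR 2.4 and featureCounts 1.4.6 on GRCm38. The methods describe TruSeq libraries and single reads of 50 bases mapped with STAR in one place, and slightly shorter reads mapped with Bowtie in another. Reads with several positions were discarded, and reads were counted over merged exons of protein coding isoforms. Strand use is not given in the sources used here. Genes with close copies thereby lose reads.

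Columns were matched to animals by the animal number in their names, groups were taken from the genotype label, and replicate numbers follow the order of deposition. Separate libraries of a genotype differed by a chi-square of at least 4.52 per gene and were counted as separate replicates. Counts were divided by the column total to give CPM, and 3 counts correspond to 0.104 to 0.221 CPM, the limit that a count of 0 allows. This limit and the 95% intervals (exact binomial on pooled counts) cover counting error only.

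All genes were fitted with edgeR 4.0.16 in R 4.3.3 (quasi-likelihood F test, robust, TMM, filterByExpr, genotype as the single factor, Benjamini-Hochberg over 15613 genes), and DESeq2 1.42.0 was an alternative. Calls required an adjusted p at or under 0.01 and over 2-fold. The fit was tested on simulated data. Symbols, positions and merged exon lengths came from GENCODE M21 (GRCm38), which held 96.6% of the gene IDs. The methods name an earlier Ensembl annotation of GRCm38 for counting. Lengths, spans and overlaps given here can therefore differ from those of the counted gene models. Exons were cut into 50-base sequences to find those shared between genes, and shorter reads would share more.

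Members, gene lists and role groups were chosen with earlier results of these data known. Values in every library are given for up to 4 members of each role group with the largest ratios, the 3 members of highest knockout CPM, members with an RFX2 promoter peak or on the P21 list, the 2 genes on each side of the limit, and Rfx2. Other members are named where a list, neighbour or library singles them out. Alternatives were other scalings, limits and count minimums, DESeq2, no filter and the omission of each library.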

Additional observations from a re-analysis of the deposited data

Results flagged for a closer look

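A library lay apart from the rest of its genotype, by the gap to its nearest neighbour over the group's range (Dixon's limit at 95%), in 7 of 88 groups of values examined, where chance gives about 1 in 20. Of these, 5 were in Rfx2-/- replicate 2. There BC049352 had 5.05 CPM (2.01 to 2.17 in the other knockout libraries), Wfdc13 10.7 CPM (0.694 to 2.11) and Zfp874a 6.06 CPM (3.60 to 3.82). In the same library Ros1 was low with 17.6 CPM (24.6 to 25.9 in the others), as was Slfn8 with 2.81 CPM (5.13 to 5.21). In wild type, BC049352 was high in replicate 3 with 0.837 CPM (0.515 to 0.589 in the others), and Rps2 was high in replicate 4 with 12.98 CPM (5.38 to 6.56).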

How the results depend on the processing

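The number of chosen genes was 101 and moved with the limits of the choice, to 55 with a mean of at least 50 counts, 241 with a ratio of at least 2, 60 with a ratio of at least 3 and 164 with no condition on overlap. It was 75 with TMM scaling and 79 with DESeq2 size factors, and 107 to 134 when a library was left out. Genes called higher numbered 129 in edgeR, 211 with DESeq2 and 92 to 175 with a library left out, the highest without Rfx2-/- replicate 1. Genes called lower numbered 575, 731 with DESeq2 and 447 to 632 with a library left out. With DESeq2, 3 elongating spermatid markers, 3 phototransduction genes, 3 receptor tyrosine kinases and 2 homeobox and epithelial regulators were called lower. Called higher were 5 genes of regulated secretion, 5 of the brush border, 4 of desmosome and keratin and 7 homeobox and epithelial regulators. So were 4 receptor tyrosine kinases, 2 inflammasome genes and 1 cyclic nucleotide channel gene. Of these brush border genes and kinases, not all were members. Without Rfx2-/- replicate 2, 4 elongating spermatid markers and 1 brush border gene were called lower. In that fit 5 genes of regulated secretion, 5 receptor tyrosine kinases and 1 cyclic nucleotide channel gene were called higher. The cause was not tested. Of 429 alternative ratios of the 39 named members, 10, of 6 members, moved by more than the spread between knockout libraries, and 0 reversed, which the choice of members fixes when a library is left out. Neighbours called higher were 4, 6 with DESeq2 and 3 without Rfx2-/- replicate 2, alternatives chosen after seeing the data. No paired analysis was possible because the animals carry no numbers shared between genotypes and the labels name no litters, although littermates were used where possible according to the methods. Low counts limit members such as Elf5, Wfdc13 and Htr3a.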
